A study of Citrus sinensis with 6 samples.

Results

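The genes described here are those annotated as ribosomal proteins in spring shoot tips of 'Cara Cara' navel orange during self-pruning, the process by which a citrus shoot sheds its own tip at an abscission zone (AZ). They were taken by name from the deposited annotation: a probe set entered when the name of its best protein match began with 60s r, 40s r, 50s r, 30s r or ribosom, whatever its signal. The rule gave 312 of the 30171 citrus probe sets on the array, that is 82 named 60s, 68 named 40s, 11 named 50s, 5 named 30s and 146 whose name begins with ribosom. The rule uses no measured value, and no filter on signal was applied, so that each of the 312 was tested. The group itself was chosen with earlier results of these data known.

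RNA came from shoot tips that included the AZ, on adult sweet orange trees, and was hybridized to the Affymetrix Citrus Genome Array, with 1 array per RNA sample. Stage 1 was 3 days before self-pruning, stage 2 was its beginning and stage 3 was 7 days after it. Each stage had 2 arrays, which the labels call biological replicates. The shoots were collected from 3 groups of 3 trees, and which trees gave which array is not given in the sources used here. The same cultivar, organ and flush were used throughout, with no treatment, so that the stages differ in time and in the state of the tip. Bulk tissue was measured, in which fewer cells of a kind and less RNA per cell cannot be told apart.

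Ribosomes translate messenger RNA into protein, and each is built from a large and a small subunit of ribosomal RNA and many different proteins. In the plant cytosol the large subunit is called 60S and the small one 40S. Plastids carry their own, bacterial-type ribosomes, whose subunits are called 50S and 30S, and most of the proteins of the plastid ribosome are encoded in the nucleus. Growing and dividing tissues make many ribosomes, and the proteins of the cytosolic ribosome are each encoded by several nearly identical genes in plants. The annotation kept only 80 characters per description, so most names stop before the number of the protein. A name therefore places a probe set in a subunit, or, for names beginning with ribosom, in neither, and a single protein cannot be identified from it. Some names beginning with ribosom may belong to proteins that are not part of a subunit. Only 1 of the 312 names holds a protein number, ribosomal l9 (Cit.30169.1.S1_at).

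Values are log2 signals, so that a difference of -1 is a 2-fold lower signal. A probe set is said to rise or fall when the adjusted p from limma (Benjamini-Hochberg over all 30171 citrus probe sets, all 6 arrays in the fit) was under 0.05. Differences are the later minus the earlier stage, ± the standard error (SE) of the fit, with n = 2 arrays per stage. The 2 arrays of a stage differed by an SD of 0.11 over the members. Array medians were 7.30 to 7.39. The level taken as background depends on the control: 60 reporter probe sets read at most 5.67, whereas 23 random-sequence probe sets had a median of 7.80 to 7.97 per array. Of the members, 91 had a mean signal below 6, 39 lay between 6 and 8, and 182 were at 8 or above. The median member had a mean signal of 9.36, and the median citrus probe set 7.37. Signal also depends on the probes, so no probe set's signal was compared with another's as a level of RNA.

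At stage 3, most members were lower than at stage 1. After self-pruning, 226 of the 312 members were lower than before it and 8 were higher, with 78 that did not pass the test. Over all citrus probe sets, 35.9% were lower and 29.9% higher in this comparison. The median difference of the members was -0.61, against -0.04 over all citrus probe sets. The falls were moderate in size: 67 members were at least 2-fold lower and passed the test, and no member reached 4-fold. The 8 higher members became 5 without the first array of stage 1 or the second of stage 3, and 4 without the second array of stage 1. The mean signal over the 312 members was 8.42 on both arrays of stage 3 and 9.01 on both arrays of stage 1. The mean over all citrus probe sets was between 7.42 and 7.43 on every array. The deposited signals had been normalized between arrays, so this overall mean could hardly differ, and it does not show that other transcripts held steady.

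At the beginning of self-pruning the difference was small and was seen in fewer members. At stage 2, 136 members were lower than at stage 1 and 17 were higher, with a median difference of -0.11, against 0.01 over all citrus probe sets, of which 21.5% were lower and 20.2% higher. Only 1 member was at least 2-fold lower. These small differences depended on the scale of the arrays: with each array centred on its median, 76 members were lower and 29 higher at stage 2, and the median member difference was -0.06, against 15.3% lower, 23.7% higher and a median of 0.06 over all citrus probe sets. At stage 3, 224 members were lower than at stage 2 and 13 were higher (median -0.49), against 36.5% lower and 29.1% higher over all citrus probe sets (median -0.05). The 13 higher members of that comparison became 7 or 8 when any 1 array other than the first of stage 2 was left out.

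**Figure D1:**
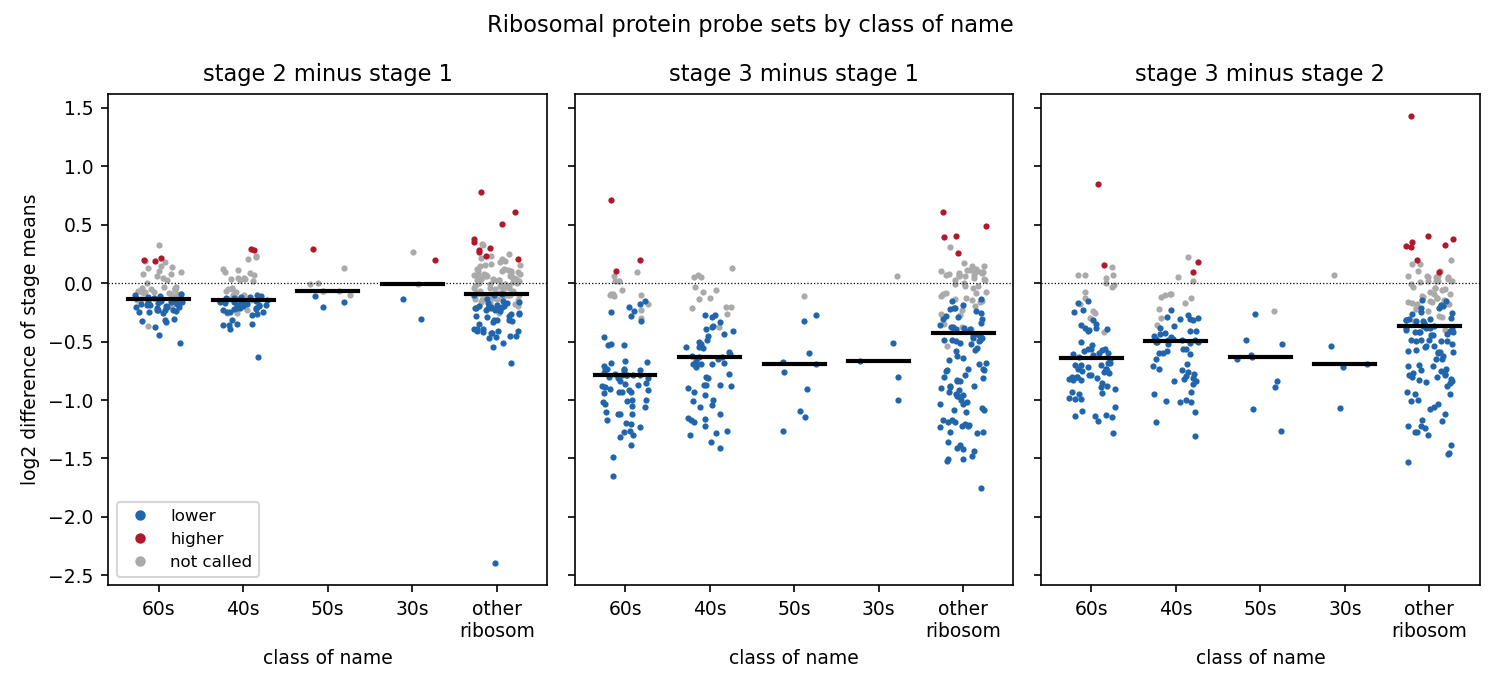
Log2 difference in signal (vertical axis) of each of the 312 members by the beginning of its name (horizontal axis), for the 3 pairs of stages. Each point is a probe set, blue where lower and red where higher at an adjusted p under 0.05 (limma) and grey otherwise, and black bars are class medians. Members named 60s have medians of -0.13 at stage 2 against 1 and -0.79 at stage 3 against 1, and few points lie above 0 at stage 3 against 1.

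The calls of the 2 successive steps share the stage 2 arrays, so the paths below describe the members and are no test. Lower at stage 2 than 1 and lower again at stage 3 than 2 was the most frequent path, taken by 126 members (40.4%), against 9.55% of all citrus probe sets. A further 85 members (27.2%) did not pass the test at the first step and were lower at the second, against 17.9% of all citrus probe sets. Neither step passed in 66 members (21.2%), against 27.5% of all citrus probe sets. A rise at stage 2 followed by a fall at stage 3 was seen in 13 members (4.17%), against 9.07% of all citrus probe sets. A rise at the second step only was seen in 8 members (2.56%), against 12.9%. In 3 members (0.962%) a fall was followed by a rise, against 8.52% of all citrus probe sets, and both steps were a rise in 2 members (0.641%), against 7.67%.

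Most members named for the large cytosolic subunit fell at stage 3. Of 82 probe sets named 60s, 65 (79.3%) were lower and 3 higher at stage 3 than at stage 1 (median -0.79). The shares over all citrus probe sets were 35.9% lower and 29.9% higher. Of the 60s members, 20 were at least 2-fold lower. Their mean signal was 9.51 and 9.52 on the arrays of stage 3, against 10.20 on both arrays of stage 1. At stage 2, 42 (51.2%) were lower and 3 higher than at stage 1 (median -0.13), against 21.5% lower and 20.2% higher over all citrus probe sets. The mean signals of the 60s members at stage 2 were 10.08 and 10.09. Every one of the 42 members that fell at stage 2 fell again between stages 2 and 3. Of the 6493 citrus probe sets that were lower at stage 2, 2881 were lower again and 2570 were higher at the second step.

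The probe set of the 60s class with the largest fall was Cit.10578.1.S1_s_at. Its signals were 11.46 and 11.45 at stage 1, 10.96 and 10.93 at stage 2, and 9.80 and 9.81 at stage 3. It was 3.13-fold lower at stage 3 than at stage 1 (-1.65 ± 0.027, limma adjusted p = 4.27e-06), and the pairs of arrays did not overlap at any step. It was also the 60s member with the largest fall at stage 2 (-0.51 ± 0.027, limma adjusted p = 0.000488). Cit.9936.1.S1_at had 10.99 and 11.04 at stage 1, 10.78 and 10.85 at stage 2, and 9.52 and 9.54 at stage 3, a fall of 1.49 ± 0.038 between stages 1 and 3. Cit.3847.1.S1_at had 11.60 and 11.64, then 11.38 on both arrays, then 10.21 and 10.25, a fall of 1.39 ± 0.031 over the same interval. In both, most of the fall came after self-pruning had begun. Cit.35024.1.S1_at showed no passing difference at stage 2 (-0.12 ± 0.057, limma adjusted p = 0.173) and fell by 1.18 ± 0.057 between stages 2 and 3. Cit.10576.1.S1_at and Cit.973.1.S1_s_at followed Cit.10578.1.S1_s_at in the size of the fall at stage 2, with differences of -0.44 ± 0.028 and -0.38 ± 0.04.

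Rises were rare among the 60s members. Cit.20833.1.S1_at had 8.45 and 8.57 at stage 1, 8.37 on both arrays at stage 2, and 9.12 and 9.32 at stage 3. The stage 3 arrays lay above all the others, a rise of 0.71 ± 0.08 over stage 1 (limma adjusted p = 0.00127). Cit.22889.1.S1_s_at rose by only 0.10 ± 0.026 over stage 1, a call that is lost with each array centred on its median or with any of the 4 arrays compared left out. Cit.18641.1.S1_at, the third, read 3.94 to 4.24 on all arrays, which is below the highest reporter controls, and its difference of 0.20 ± 0.053 loses its call when any of the 4 arrays compared is left out. At stage 2, Cit.342.1.S1_at (0.20 ± 0.038) and Cit.12794.1.S1_at (0.19 ± 0.033) were higher than at stage 1, and between stages 2 and 3 they fell by 0.35 and 0.40. Both rises at stage 2 lose their call without either of the stage 2 arrays.

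The small cytosolic subunit gave a similar picture. Of 68 probe sets named 40s, 54 (79.4%) were lower and 0 higher at stage 3 than at stage 1 (median -0.63), 14 of them at least 2-fold. Here and for the other counts of 0 higher below, limma at an unadjusted p under 0.05 gave 0 as well. The shares over all citrus probe sets were 35.9% lower and 29.9% higher at stage 3 than at stage 1. The mean signal of the 40s members was 8.92 and 8.90 on the arrays of stage 3, against 9.55 on both arrays of stage 1. At stage 2, 39 (57.4%) were lower and 2 higher than at stage 1 (median -0.14), against 21.5% lower and 20.2% higher over all citrus probe sets.

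Cit.9917.1.S1_x_at had the largest fall of the 40s class. Its signals were 9.66 on both arrays at stage 1, 9.59 and 9.54 at stage 2, and 8.26 and 8.24 at stage 3. It was 2.66-fold lower at stage 3 than at stage 1 (-1.41 ± 0.029, limma adjusted p = 6.6e-06), whereas its difference at stage 2 did not pass the test (-0.10 ± 0.029, limma adjusted p = 0.0548). The suffix _x_at marks probes that can also bind other sequences. Cit.2488.1.S1_s_at had 12.51 and 12.50 at stage 1, 12.16 and 12.15 at stage 2, and 11.16 and 11.13 at stage 3, and fell at both steps, by 0.35 ± 0.026 and 1.02 ± 0.026. Cit.1983.1.S1_x_at had 10.33 and 10.35, then 10.22 and 10.24, then 9.02 and 9.06, and fell by 1.30 ± 0.029 between stages 1 and 3. As in the 60s class, the second step was the larger one in each of these probe sets.

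The largest fall of the 40s class at stage 2 was in a dim probe set, Cit.20039.1.S1_at, with 4.47 and 4.44 at stage 2, against 5.25 and 4.93 at stage 1 (-0.63 ± 0.12, limma adjusted p = 0.0164). The 2 arrays of stage 1 were themselves well apart, and the call is lost without either array of stage 2. Cit.9063.1.S1_at followed, with 9.76 and 9.69 at stage 2, against 10.16 and 10.08 at stage 1 (-0.39 ± 0.053). Cit.343.1.S1_s_at was the 1 bright member of the class that fell at stage 2 and then rose. It had 9.78 and 9.83 at stage 1, 9.57 and 9.62 at stage 2, and 9.74 and 9.81 at stage 3. Stages 1 and 3 overlapped (-0.04 ± 0.043), and the dip of 0.22 and the rise of 0.18 each lose their call without some of the arrays. The 2 members that rose at stage 2, Cit.19235.1.S1_at (0.29 ± 0.06) and Cit.19164.1.S1_at (0.28 ± 0.044), read at most 4.58 on any array, and the first loses its call when the first array of either stage is left out.

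**Figure D2:**
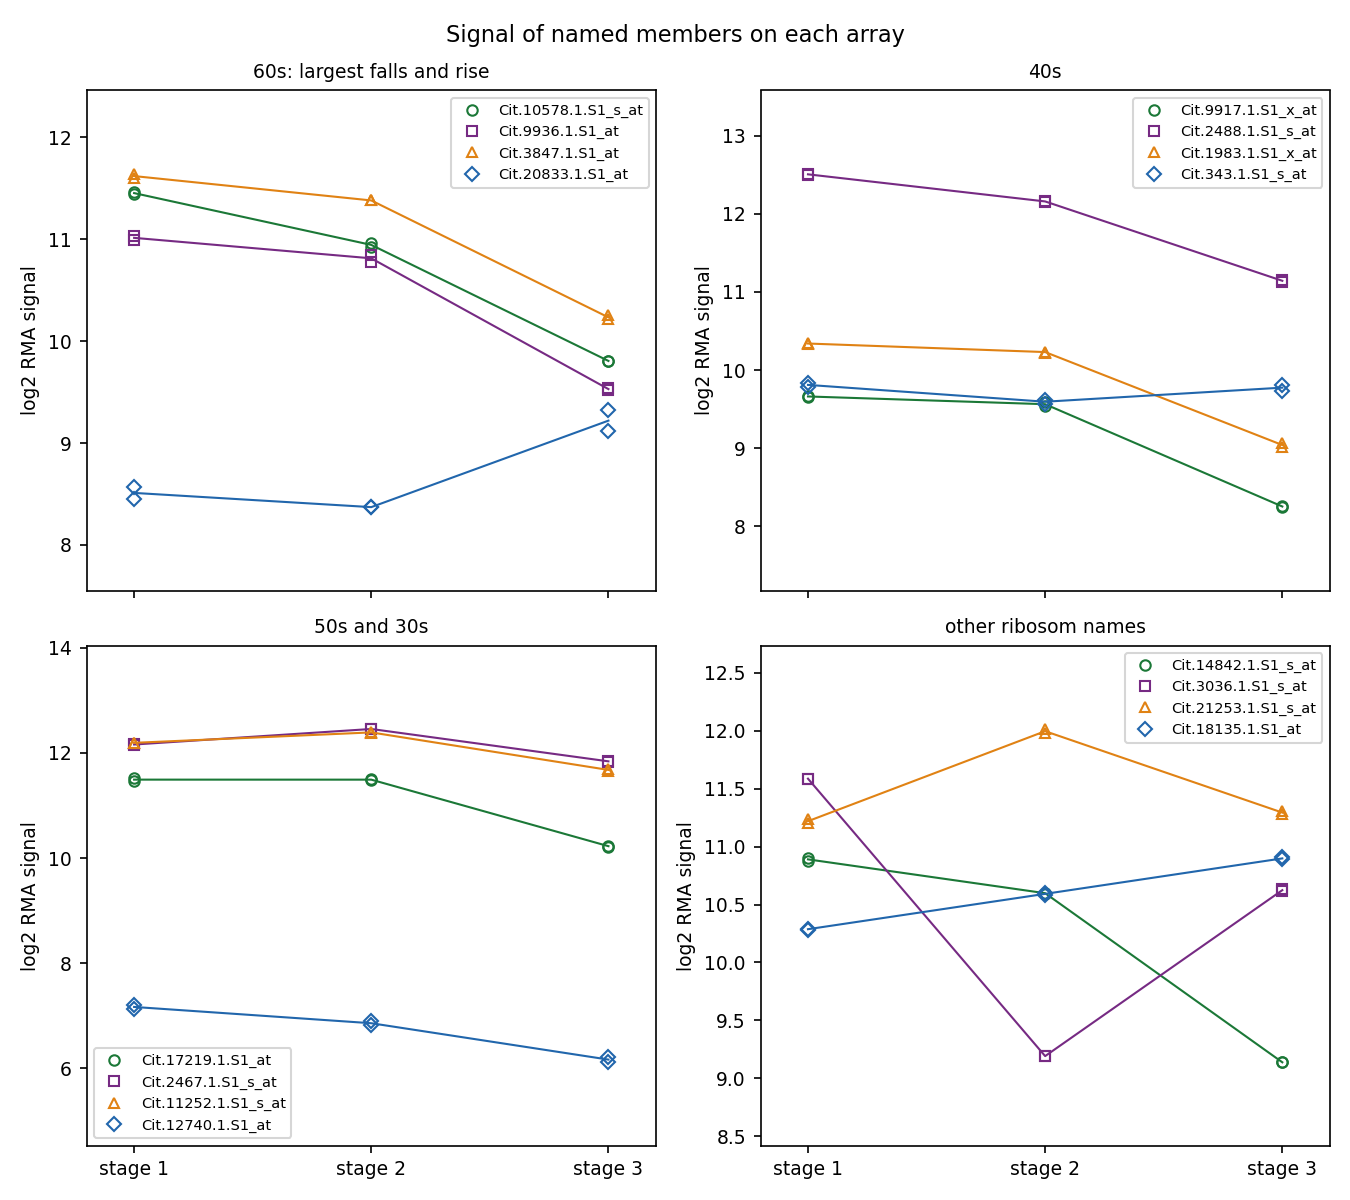
Log2 signal (vertical axis) at stages 1, 2 and 3 (horizontal axis) of 16 named members in 4 panels by the beginning of the name. Points are the 2 arrays of a stage and lines join the stage means. Most lines fall mainly between stages 2 and 3, Cit.20833.1.S1_at and Cit.18135.1.S1_at end above their stage 1 signals, and Cit.3036.1.S1_s_at drops to 9.19 at stage 2 and returns to 10.61 and 10.64 at stage 3.

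The members named for the bacterial-type 50S and 30S subunits differed little at stage 2 and fell at stage 3. Of the 11 named 50s, 10 were lower and 0 higher at stage 3 than at stage 1 (median -0.69), with 3 of them at least 2-fold lower. Of the 5 named 30s, 4 were lower and 0 higher (median -0.67). Both classes together had 87.5% lower, against 35.9% lower and 29.9% higher over all citrus probe sets. For both together, the mean signal was 9.76 and 9.78 on the arrays of stage 1, 9.74 and 9.76 on those of stage 2, and 9.08 and 9.11 on those of stage 3. At stage 2, 5 of the 16 (31.2%) were lower and 2 (12.5%) higher than at stage 1 (median -0.06). Among the 150 named 60s or 40s, 81 (54%) were lower and 5 (3.33%) higher (median -0.14). The shares over all citrus probe sets were 21.5% lower and 20.2% higher. The difference between the 50s and 30s names and the 60s and 40s names was not tested, since probe sets are not replicates. Of the 16, 5 (31.2%) fell at both steps, against 9.55% of all citrus probe sets. Another 7 (43.8%) passed the test only as a fall at the second step, against 17.9%.

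Cit.17219.1.S1_at, a 50s member, showed this course most plainly. It had 11.52 and 11.47 at stage 1, 11.49 and 11.50 at stage 2, and 10.23 and 10.22 at stage 3. The first 2 stages overlapped (limma adjusted p = 0.993), and stage 3 was 2.41-fold lower than stage 1 (-1.27 ± 0.030, limma adjusted p = 9.07e-06). Cit.26265.1.S1_at had 11.48 and 11.46, then 11.41 and 11.40, then 10.34 and 10.31, with a fall of 1.14 ± 0.026 between stages 1 and 3. Cit.3885.1.S1_s_at fell at both steps, by 0.20 ± 0.026 and 0.89 ± 0.026. The smallest fall that passed the test in this class was that of Cit.21865.1.S1_s_at (-0.28 ± 0.036), and the other probe set of the same transcript, Cit.21865.1.S1_at, was the 1 member of the 50s class that did not pass (-0.11 ± 0.087, limma adjusted p = 0.306).

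A pair of bright members of these classes rose at stage 2 before they fell. The 50s member Cit.2467.1.S1_s_at had 12.17 and 12.15 at stage 1, 12.46 on both arrays at stage 2, and 11.84 and 11.85 at stage 3, with a rise of 0.30 ± 0.024 at the first step (limma adjusted p = 0.00141). The 30s member Cit.11252.1.S1_s_at had 12.19 and 12.20, then 12.40 and 12.38, then 11.66 and 11.69, with a rise of 0.20 ± 0.027 at the first step (limma adjusted p = 0.00555). In both, the arrays of stage 2 lay above all the others and those of stage 3 below all the others. Among the remaining 30s members, Cit.12740.1.S1_at fell at both steps, with 7.13 and 7.20 at stage 1, 6.82 and 6.90 at stage 2, and 6.11 and 6.22 at stage 3 (-1.0 ± 0.056 over the whole interval), although its first step loses its call without the second array of stage 1 or the first of stage 2. The probe sets Cit.18371.1.S1_at and Cit.18371.1.S1_s_at of 1 transcript fell by 0.80 and 0.67 between stages 1 and 3. Cit.11894.1.S1_at read 3.66 to 3.77 on all 6 arrays and passed no test.

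The 146 members whose name begins with ribosom, without a subunit, included the largest falls and most of the rises. At stage 3, 93 (63.7%) were lower and 5 higher than at stage 1 (median -0.42), against 35.9% lower and 29.9% higher over all citrus probe sets. Of the 146, 29 were at least 2-fold lower. At stage 2, 50 (34.2%) were lower and 10 higher than at stage 1 (median -0.09), against 21.5% and 20.2%. The median signal of the 146 over all arrays was 7.79, below that of the members named 60s (11.11) or 40s (10.13), and 53 of the 146 had a mean signal below 6. In 39 of them (26.7%) neither step passed the test, against 27.5% of all citrus probe sets.

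Cit.14842.1.S1_s_at had the largest fall of all 312 members between stages 1 and 3. Its signals were 10.90 and 10.88 at stage 1, 10.60 on both arrays at stage 2, and 9.14 on both arrays at stage 3. It was 3.37-fold lower at stage 3 than at stage 1 (-1.75 ± 0.025, limma adjusted p = 3.28e-06). Cit.17497.1.S1_at fell in more even steps, with 9.70 and 9.69, then 9.01 and 9.02, then 8.19 and 8.16, by 0.68 ± 0.026 and 0.84 ± 0.026. Cit.4343.1.S1_s_at differed little at stage 2 (-0.03 ± 0.024) and fell to 10.63 and 10.62 at stage 3, against 12.07 and 12.08 at stage 2. Cit.23161.1.S1_at had 10.18 and 10.22 at stage 2 and 8.63 and 8.72 at stage 3, the largest fall of any member between those stages (-1.53 ± 0.052). Cit.9049.1.S1_at fell at the first step only, by 0.55 ± 0.051, with 9.18 and 9.22 at stage 2, against 9.71 and 9.79 at stage 1. Its second step did not pass (-0.10 ± 0.051).

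One member stood apart from all others in its course. Cit.3036.1.S1_s_at, annotated as a 40s ribosomal protein in the supplementary annotation of the study, had 11.59 on both arrays at stage 1, 9.19 on both arrays at stage 2, and 10.61 and 10.64 at stage 3. It was the only member at 4-fold or more in any comparison. The fall at stage 2 was 2.40 ± 0.025 on the log2 scale (limma adjusted p = 1.6e-05), and the rise between stages 2 and 3 was 1.43 ± 0.025 (limma adjusted p = 5.79e-06), which left it 0.96 below stage 1. The suffix _s_at marks probes shared by several transcripts, so that the signal can come from more than 1 gene.

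Some members of this class rose. Cit.18135.1.S1_at had 10.29 and 10.28 at stage 1, 10.58 and 10.60 at stage 2, and 10.91 and 10.89 at stage 3. It rose at both steps (0.30 ± 0.025 and 0.31 ± 0.025), with no overlap between any of the stages. Cit.40073.1.S1_at also rose at both steps at a lower signal, with 6.48 and 6.60, then 6.84 and 6.81, then 7.04 and 7.02, although its first step loses its call without the first array of stage 2 and its second step when any of the 4 arrays compared is left out. Cit.21253.1.S1_s_at peaked at stage 2, with 11.24 and 11.20 at stage 1, 12.02 and 11.98 at stage 2, and 11.31 and 11.28 at stage 3. Its rise at stage 2 was 0.78 ± 0.031 (limma adjusted p = 0.000249), and stage 3 did not differ from stage 1 beyond the test's threshold (0.07 ± 0.031). Cit.30634.1.S1_at peaked likewise, with 12.66 on both arrays at stage 1, 13.26 and 13.28 at stage 2 (a rise of 0.61 ± 0.025), and 12.47 on both arrays at stage 3. Of the 17 members of all classes that were higher at stage 2 than at stage 1, 10 were lower and 3 higher at stage 3 than at stage 1. The dim members Cit.18533.1.S1_at (0.40 ± 0.08), Cit.9270.1.S1_at (0.40 ± 0.12) and, named after its values were seen, Cit.405.1.S1_at (0.26 ± 0.075) complete the 5 of this class that were higher at stage 3 than at stage 1.

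The share of members that fell was larger at higher signals. Between stages 1 and 3, 31 of 91 members with a mean signal below 6 were lower (34.1%), against 18.3% of all citrus probe sets in that band. Between signals of 10 and 12, 56 of 60 members were lower (93.3%), against 51.4% of all citrus probe sets. At 12 and above, all 73 members were lower, against 57.6% of all citrus probe sets. Of the 78 members that did not pass the test, 57 had a mean signal below 6 and 7 a signal of at least 8. The 226 that were lower had a median signal of 10.69, and the 78 had one of 4.71. The part of the low signal in the members that did not pass was not tested. At stage 2 against stage 1, 59 of 73 members at 12 and above were lower (80.8%), against 31.6% of all citrus probe sets in that band. Below 6, 6 of 91 members were lower (6.59%), which is near the 6.4% of all citrus probe sets there.

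**Figure D3:**
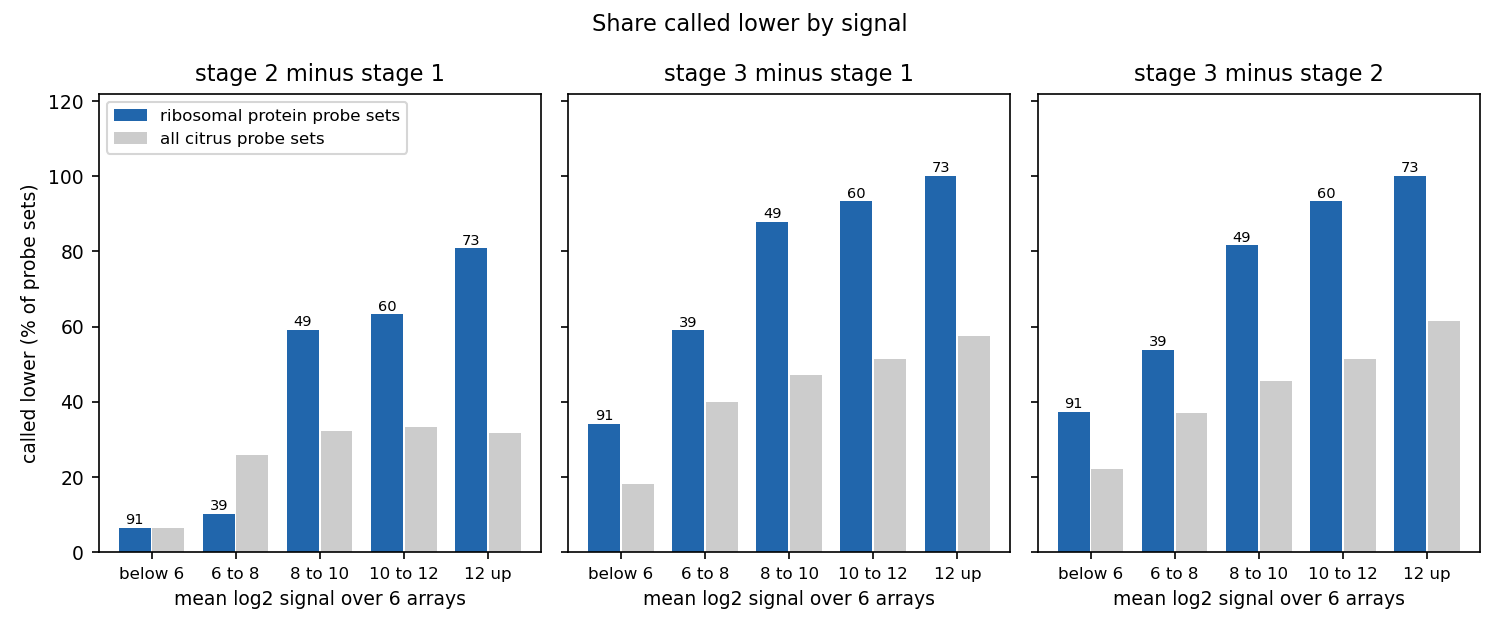
Percent of probe sets lower at an adjusted p under 0.05 (limma, vertical axis) by band of mean log2 signal over the 6 arrays (horizontal axis), for members and for all citrus probe sets; numbers above the bars are the members in each band. Between stages 1 and 3, the members' share runs between 34.1% below 6 and 100% at 12 and above, and exceeds that of all citrus probe sets in each band.

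Of the 312 members, 145 have the suffix _s_at or _x_at, which marks shared or cross-binding probes, so that members overlap in what they measure. Among the members with a signal of at least 8, the share lower at stage 3 than at stage 1 was 92.6% of 54 with probes of their own (_at), 96.4% of 111 with the suffix _s_at and 88.2% of 17 with _x_at. Over all citrus probe sets with a signal of at least 8, the shares were 49.6% for _at, 49.1% for _s_at and 46.5% for _x_at. The fall at stage 3 was thus seen in most bright members whose probes are not marked as shared. The 10 members at a signal of at least 8 that were not lower at stage 3 were looked up after their values were seen. Besides Cit.20833.1.S1_at, Cit.18135.1.S1_at, Cit.22889.1.S1_s_at, Cit.21253.1.S1_s_at and Cit.343.1.S1_s_at, they were Cit.17681.1.S1_x_at, Cit.22286.1.S1_x_at, Cit.12683.1.S1_s_at, Cit.17194.1.S1_at and Cit.8642.1.S1_at. The last 3 passed no test, with differences of 0.07, 0.10 and 0.04 between stages 1 and 3.

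Probe sets that share a best protein match represent the same protein or close copies of its gene, and they let copies be set side by side. The 312 members had 221 best matches, of which 162 had at least 1 probe set that was lower at stage 3 than at stage 1 and 107 had one at stage 2. There were 21 best matches with 3 or more probe sets, 80 probe sets in all. In each of the 21, at least 1 probe set was lower at stage 3 than at stage 1, and in 11 every probe set was. In only 1 of them was a probe set higher. None of these counts, nor that of opposite calls below, was made over all best matches on the array. Over all citrus probe sets, 35.9% were lower and 29.9% higher at stage 3 than at stage 1, and 21.5% were lower at stage 2. A match with several probe sets is also more likely to hold a lower one.

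The falls of probe sets that share a best match differed in size. Of the 3 probe sets matched to P40590, Cit.10578.1.S1_s_at and Cit.10576.1.S1_at fell by 1.65 ± 0.027 and 1.20 ± 0.028 between stages 1 and 3, while Cit.22576.1.S1_at, which read 4.04 to 4.26, did not pass (0.02 ± 0.089). Of the 3 matched to O49884, Cit.9936.1.S1_at was 2.80-fold lower at stage 3 than at stage 1, Cit.9936.1.S1_s_at 2.15-fold and Cit.9937.1.S1_at 1.44-fold. The first and second of these belong to the same cluster, so their difference is not one between copies of a gene. The differences between such probe sets were not themselves tested. In the 60s probe sets matched to AAR83877.1, Cit.8759.1.S1_at had 9.68 and 9.81 at stage 3, against 10.86 and 10.97 at stage 1 (-1.17 ± 0.074), whereas Cit.17681.1.S1_x_at had 11.03 and 11.07, against 10.96 and 11.02 (0.06 ± 0.077, limma adjusted p = 0.517). Of the 7 probe sets of the 40s match AAM93434.1, 5 fell, with the largest fall in Cit.35574.1.S1_s_at (-1.22 ± 0.033), and the dim Cit.247.1.S1_at (0.07 ± 0.057) and the cross-binding Cit.22286.1.S1_x_at (-0.26 ± 0.10) did not pass. Of the 7 of the 40s match CAG47084.1, 6 fell, by 0.27 to 0.80. By contrast, the 3 probe sets of the single cluster Cit.12576.1 gave nearly the same value, with stage 3 signals 1.95-fold to 2.09-fold below those of stage 1.

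**Figure D4:**
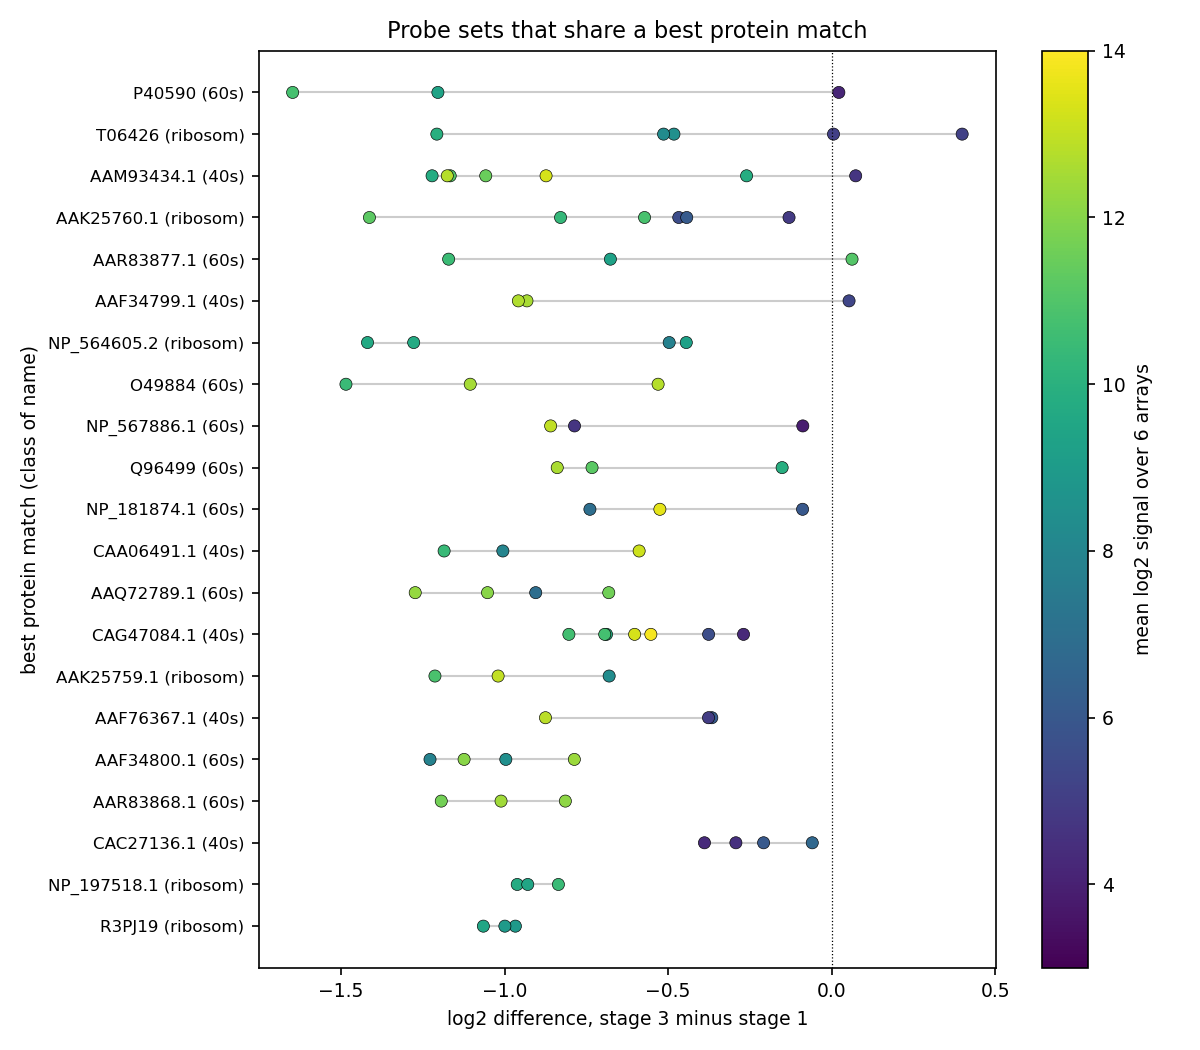
Log2 difference of stage 3 minus stage 1 (horizontal axis) of each probe set, by best protein match, for the 21 best matches with 3 or more probe sets; colour gives the mean log2 signal over the 6 arrays. Points lie between -1.65 (Cit.10578.1.S1_s_at) and 0.40 (Cit.9270.1.S1_at), and most are below 0.

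In 7 best matches, probe sets passed the test in opposite directions in at least 1 comparison. In the match NP_564605.2, Cit.21963.1.S1_s_at had 8.12 and 8.17 at stage 2, against 7.88 on both arrays at stage 1 (0.27 ± 0.030), and Cit.36306.1.S1_s_at had 9.14 and 9.20 at stage 2, against 9.58 on both arrays at stage 1 (-0.41 ± 0.032). All 4 probe sets of this match were lower at stage 3 than at stage 1, by 0.44 to 1.42. In the match T06426, Cit.19408.1.S1_at fell by 1.21 ± 0.052 between stages 1 and 3 while the dim Cit.9270.1.S1_at rose by 0.40 ± 0.12, a call that is lost without some of the arrays. In the match AAL09401.1, Cit.24856.1.S1_s_at had 11.31 and 11.27 at stage 3, against 12.61 and 12.58 at stage 2, a fall of 1.30 ± 0.030, and Cit.8384.1.S1_at had 6.71 and 6.53, against 6.38 and 6.15 (0.35 ± 0.11, limma adjusted p = 0.0384), which is lost with each array centred on its median.

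Names just outside the rule also fell for the most part. The acidic ribosomal proteins, which form the stalk of the large subunit where elongation factors bind, have names in which acidic, in some cut short, follows 60s or comes first. Of 8 such probe sets, 5 were lower and 1 higher at stage 3 than at stage 1, against 35.9% lower and 29.9% higher over all citrus probe sets. Cit.8304.1.S1_s_at had 10.85 on both arrays at stage 3, against 12.13 and 12.15 at stage 1 (-1.29 ± 0.024), and Cit.35386.1.S1_s_at and Cit.9189.1.S1_s_at fell by 1.17 and 0.98. The probe set that was higher, Cit.25501.1.S1_at, read 5.84 and 6.13 at stage 3, against 5.51 and 5.60 at stage 1. A further 16 names stop right after 60s, 40s or 50s, and of these 11 were lower and 0 higher at stage 3 than at stage 1 (median -0.46). The largest fall among them was that of Cit.26692.1.S1_s_at (-1.43 ± 0.027).

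Probe sets named for the making or use of ribosomes were set beside the members. Their names are cut short too, some at eukaryotic tra, elongation fa or trna sy, so single entries may be other proteins. Over all citrus probe sets, 35.9% were lower and 29.9% higher at stage 3 than at stage 1. Nucleolar proteins include factors that process ribosomal RNA and assemble the subunits. Of 15 probe sets in this list, 13 were lower and 0 higher at stage 3 than at stage 1 (median -0.76). At stage 2, 11 were lower and 1 higher. The roles of some are not given by their names, which stop at nucleol or nucleolar his. Fibrillarin (Cit.28338.1.S1_at), which methylates ribosomal RNA, had 10.10 and 10.08 at stage 3, against 11.33 and 11.39 at stage 1 (-1.27 ± 0.032). Pescadillo (Cit.13330.1.S1_s_at), an assembly factor of the large subunit, fell by 1.17 ± 0.026. A protein named for the brix domain (Cit.6613.1.S1_at), of a family known in ribosome assembly, fell by 1.16 ± 0.025. The other lists had medians nearer to 0. Of 21 initiation factors of translation, 12 were lower and 3 higher at stage 3 than at stage 1 (median -0.21), of 9 elongation factors 5 were lower and 0 higher (median -0.32), and of 10 aminoacyl-tRNA synthetases, which load tRNAs with amino acids, 6 were lower and 2 higher (median -0.36). At stage 2, no more than 4 probe sets of any of these 3 lists were lower than at stage 1. That is 10% to 22.2% of a list, against 21.5% of all citrus probe sets.

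**Figure D5:**
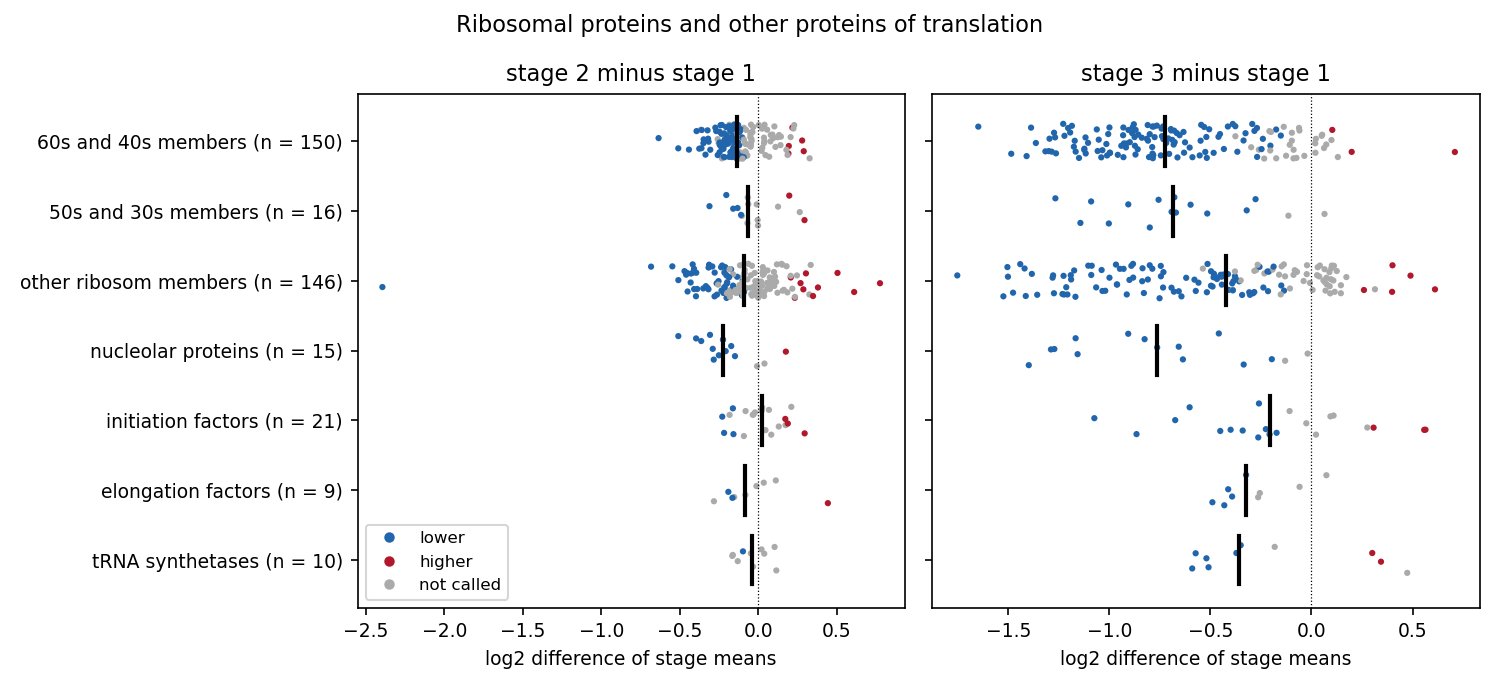
Log2 difference in signal (horizontal axis) for stage 2 minus stage 1 and stage 3 minus stage 1. Rows (vertical axis) are the members, split by the beginning of the name, and 4 lists of other protein synthesis genes. Points are probe sets, coloured by call (limma adjusted p under 0.05), and black bars are medians. At stage 3 minus stage 1 the medians were -0.73 for 60s and 40s names, -0.68 for 50s and 30s names and -0.42 for other ribosom names. They were -0.76 for the nucleolar proteins and -0.21 for the initiation factors.

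Other measures moved with the fall of the members at stage 3, and their part in it was not tested. For the counts below, the shares over all citrus probe sets were 35.9% lower and 29.9% higher at stage 3 than at stage 1. Of 36 probe sets whose name begins with cyclin, cyclin-dependent and cyclin-related proteins included, or with histone h3, 25 (69.4%) were lower and 10 (27.8%) higher at stage 3 than at stage 1. Their mean signal was 8.26 to 8.28 on the arrays of stage 3, against 8.84 to 8.86 on those of stage 1. Of 5 probe sets of shoot meristem and young organs, 3 were lower and 1 higher, with a mean signal of 7.52 to 7.55 at stage 3, against 8.43 to 8.45 at stage 1. The largest fall was in a probe set named yabby (Cit.6654.1.S1_at, -3.32 ± 0.043), and the 1 higher was named knotted (Cit.10480.1.S1_at, 0.70 ± 0.028). The list thus went in both directions. Of 9 probe sets of xylem and secondary walls, 6 were higher and 1 lower, with a mean signal of 8.15 to 8.21 at stage 3, against 7.05 to 7.11 at stage 1. Of 19 probe sets of green tissue, 11 were lower and 2 higher at stage 3 than at stage 1. At stage 2, 14 of them were higher and 0 lower than at stage 1, against 20.2% higher and 21.5% lower over all citrus probe sets. As a measure of RNA integrity, the 3′ minus 5′ difference of the actin control was 1.87 and 1.94 on the arrays of stage 1, 1.89 and 1.93 on those of stage 2, and 1.62 and 1.66 on those of stage 3.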

How the data were processed

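Gene expression was measured on the Affymetrix Citrus Genome Array in 6 samples, 2 per stage. The authors deposited log2 signals from robust multi-array average (RMA) in Expression Console; the methods also name Microarray Suite. The deposited table of stage means was used for its annotation, whose names and best protein matches give the rule for the members, and its means were checked against the means of the 2 arrays; its ratios and p-values between stages were not used. Descriptions stop after 80 characters, so probe sets were grouped by best match in place of gene name, a choice made after the table was seen.

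Of 30395 probe sets, 224 controls and sequences other than citrus genes were left out. The other 30171 were fitted with limma 3.58.1 (lmFit, contrasts, eBayes; R 4.3.3) on all 6 arrays without covariates, and p-values were adjusted by Benjamini-Hochberg over the 30171; a call needs an adjusted p under 0.05. The fit was tested on simulated data. SAM (significance analysis of microarrays), which the methods name, was not run. The number of arrays limits the precision, and the replicates may share trees, so that p-values measure the spread between these samples. Summaries were computed in Python 3.11.15 (pandas 2.3.3, numpy 2.4.6) and plotted with matplotlib 3.10.9.

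The members and the lists of other protein synthesis genes and tissue markers were chosen with earlier results of these data known. Named members are, in each class and comparison, the 3 largest falls and the 3 largest rises that passed the test with no overlap between arrays, any member at 4-fold or more, best matches with 3 or more probe sets or with opposite calls, and the acidic proteins. Alternatives were each array centred on its median, quantile normalization, no moderation, a trend in the prior variance, the replicate number as a block, only the 4 arrays compared, filters at a mean signal of 6 or 8, controls kept in the test, a 1.5-fold minimum, the thresholds of the methods (4-fold and p of at most 0.001), each array left out in turn, 1 probe set per best match, and only probe sets with the suffix _at.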

Additional observations from a re-analysis of the deposited data

How the results depend on the processing

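More members were lower than higher under each alternative run that gave calls. At stage 2 against 1, the 136 lower members became 76 with each array centred on its median, 3 with a 1.5-fold minimum, 1 under the thresholds of the methods and 40 with only the suffix _at; the 17 higher became 29, 2 and 0 under the first 3, 31 with the replicate number as a block and 11 with a mean signal of at least 8. At stage 3 against 1, the 226 lower became 0 under the thresholds of the methods and 99 with only the suffix _at, and the 8 higher became 5 with a mean signal of at least 8, 2 with a 1.5-fold minimum and 0 under the thresholds of the methods. At stage 3 against 2, the 224 lower became 127 with a 1.5-fold minimum, 0 under the thresholds of the methods and 95 with only the suffix _at. The 13 higher of that comparison became 7 with centring, without moderation or with only the 4 arrays compared, 8 and 5 with a mean signal of at least 6 and 8, 2 with a 1.5-fold minimum and 0 under the thresholds of the methods. Only 167 members have the suffix _at, which lowers those counts by construction; for the others the cause was not tested.

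Leaving out 1 array at a time gave 93 to 124 lower and 12 to 19 higher members at stage 2 against 1, 214 to 226 lower and 4 to 7 higher at stage 3 against 1, and 210 to 223 lower and 7 to 9 higher at stage 3 against 2; the stage left with 1 array is then assumed to vary like the others. Same-numbered arrays deviated together (correlation over probe sets 0.561 for stages 1 and 2, 0.475 for 1 and 3, 0.463 for 2 and 3), but with 2 pairs per comparison and no label that ties a number to trees or a batch, this is a hint from the data only. With the replicate block, 150 members were lower and 31 higher at stage 2 against 1, 236 and 11 at stage 3 against 1, and 236 and 16 at stage 3 against 2. With 1 probe set per best match, an alternative chosen after the table was seen, 160 of 221 were lower and 7 higher at stage 3 against 1. The probe set with the highest mean signal was kept, and lower calls were more frequent at higher signals. Without such a choice, 35.9% of all citrus probe sets were lower and 29.9% higher. Of 280 differences of named members that passed the test, none reversed in 3615 comparisons with an alternative, and 200 of those comparisons lost the call, 25 of them with centring and 0 with the block. No moderation, the trend, the block, only the 4 arrays compared and the signal filter left each difference unchanged, so none could reverse there. The same holds for leaving out an array of the stage not compared. Nor could leaving out 1 array reverse a difference in which the arrays of the 2 stages did not overlap. No overlap was required of the largest falls and rises in the comparison they were named for. Of the 78 members without a call at stage 3 against 1, 57 had a mean signal below 6, and the part of low signal in this was not tested.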
